A study of Rattus norvegicus with 4 samples.

Results

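The subject is a set of 10 genes of the Notch pathway: the receptors Notch1, Notch2, Notch3 and Notch4, the ligands Jag1, Jag2, Dll1 and Dll4, and the target genes Hey1 and Heyl. Each symbol matched 1 of the 30560 genes in the feature table. Their unique molecular identifiers (UMIs, each standing for 1 captured RNA molecule) were summed per library over 4 marker-gated classes. These were blood endothelial cells, mural cells (gated on pericyte and smooth muscle markers), fibroblasts and keratinocytes. Smooth muscle of vessel walls was not separated from other smooth muscle of the tissues. The cells came from wild-type rats, with 2 single-cell libraries of subcutaneous fascia and 2 of skin, prepared by droplet sequencing of RNA 3' ends (10x Genomics). The study compared the cells that make up the fascia with those of the skin, and the labels name no treatment. They do not say whether the libraries of a tissue come from different animals, so p-values measure the spread between libraries, which may be technical.

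Notch receptors sit in the membrane of one cell and bind Delta-like or Jagged ligands on its neighbour. Binding exposes the receptor to cleavage, and the freed intracellular part enters the nucleus, joins the DNA-binding protein RBPJ and turns on genes such as those of the Hes and Hey repressor families. In vessels the pathway takes part in arterial identity, sprouting and the coating of vessels by mural cells. In the epidermis it takes part in keratinocyte differentiation.

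After filtering, 6812 and 7008 cells remained in the fascia libraries and 7460 and 16442 in the skin libraries, in the order replicate 1 and replicate 2, which holds for every pair of values below. A median fascia cell held 12908 and 10452 UMIs, against 9039.5 and 2352.5 in skin, and 43.0% of the cells of skin replicate 2 held under 2000. Endothelial cells numbered 489 and 896 in fascia and 204 and 137 in skin. Mural cells numbered 851 and 1775 in fascia and 67 and 251 in skin, and fibroblasts 2825 and 764 in fascia and 460 and 534 in skin. Keratinocytes numbered 0 and 1 in fascia and 6019 and 11544 in skin, so keratinocyte values are given for skin alone. Of the 10 genes that led each class by fold, 3 in endothelial cells, 6 in mural cells, 6 in fibroblasts and 9 in keratinocytes were markers of that class, and 0 were markers of another. The summed keratinocyte markers in the other skin classes stood at 0.77% to 1.12% of their keratinocyte level. The summed endothelial markers in mural cells stood at 2.93% to 4.89% of their endothelial level. Any pair of libraries shared 17 to 45 cell barcodes.

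Levels are in CPM, the UMIs of a gene as a proportion of all UMIs of the class in that library on the usual depth-scaled count. A log2 change is given with its standard error (SE), and a gene passed the test at an adjusted p under 0.05 by the quasi-likelihood test of edgeR, with p-values adjusted by Benjamini and Hochberg's method over all genes tested. A two-sided exact permutation test of 2 libraries against 2 cannot give a p under 0.33, so the model borrows the estimate of spread from the other genes.

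The bases before the start of transcription were read for the members from RefSeq (build GRCr8), of whose promoter windows 9 belonged to 8 of the 10 members. Hey1 and Dll4 had no entry. The windows of 2 pairs of members are shown because each pair shared a class. Notch3 and Heyl had their highest levels in mural cells in all 4 libraries, and Notch4 and Dll1 had theirs in endothelial cells in all 4. Notch1 too had its highest level in endothelial cells in all 4, and its window is not shown. Each sequence holds the 250 bases before the start in the direction of the gene, with capitals marking the RBPJ core motif TGGGAA or its reverse complement TTCCCA.
Notch3, chr7:11834586-11834835, minus strand: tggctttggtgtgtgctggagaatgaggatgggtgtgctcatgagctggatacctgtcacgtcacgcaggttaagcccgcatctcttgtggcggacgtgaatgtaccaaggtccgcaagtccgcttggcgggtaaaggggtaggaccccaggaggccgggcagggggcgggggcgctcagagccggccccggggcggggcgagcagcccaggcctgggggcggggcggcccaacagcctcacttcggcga
Heyl, chr5:140793021-140793270, plus strand: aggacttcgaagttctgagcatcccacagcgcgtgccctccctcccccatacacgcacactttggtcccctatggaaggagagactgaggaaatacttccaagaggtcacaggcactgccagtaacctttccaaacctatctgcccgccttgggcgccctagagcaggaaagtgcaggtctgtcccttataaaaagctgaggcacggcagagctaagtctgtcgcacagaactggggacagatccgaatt
Notch4, chr20:4189073-4189322, minus strand: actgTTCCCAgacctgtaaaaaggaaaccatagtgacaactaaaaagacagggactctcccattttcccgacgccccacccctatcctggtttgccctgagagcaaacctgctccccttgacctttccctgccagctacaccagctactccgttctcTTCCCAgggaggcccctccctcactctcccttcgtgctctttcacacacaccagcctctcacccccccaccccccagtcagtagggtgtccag
Dll1, chr1:64993275-64993524, minus strand: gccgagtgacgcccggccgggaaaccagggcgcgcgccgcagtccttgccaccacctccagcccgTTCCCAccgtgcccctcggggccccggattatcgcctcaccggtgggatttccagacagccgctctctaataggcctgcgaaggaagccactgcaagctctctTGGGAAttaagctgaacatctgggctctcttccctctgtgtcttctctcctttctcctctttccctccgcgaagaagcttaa
The motif search covered both strands, and the motif does not overlap its reverse complement in these windows. It lay in 2 of the 9 member windows, those of Notch4 and Dll1, with 2 copies in each. The window of Notch1, which shared the endothelial class with them, held 0 copies. The copies in Notch4 began 246 and 93 bases before the start, and those in Dll1 185 and 82 bases before it. Of all 33469 windows of this length, 7387 (22.1%) held the motif. A match of letters is a description and no evidence of binding.

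**Figure D1:**
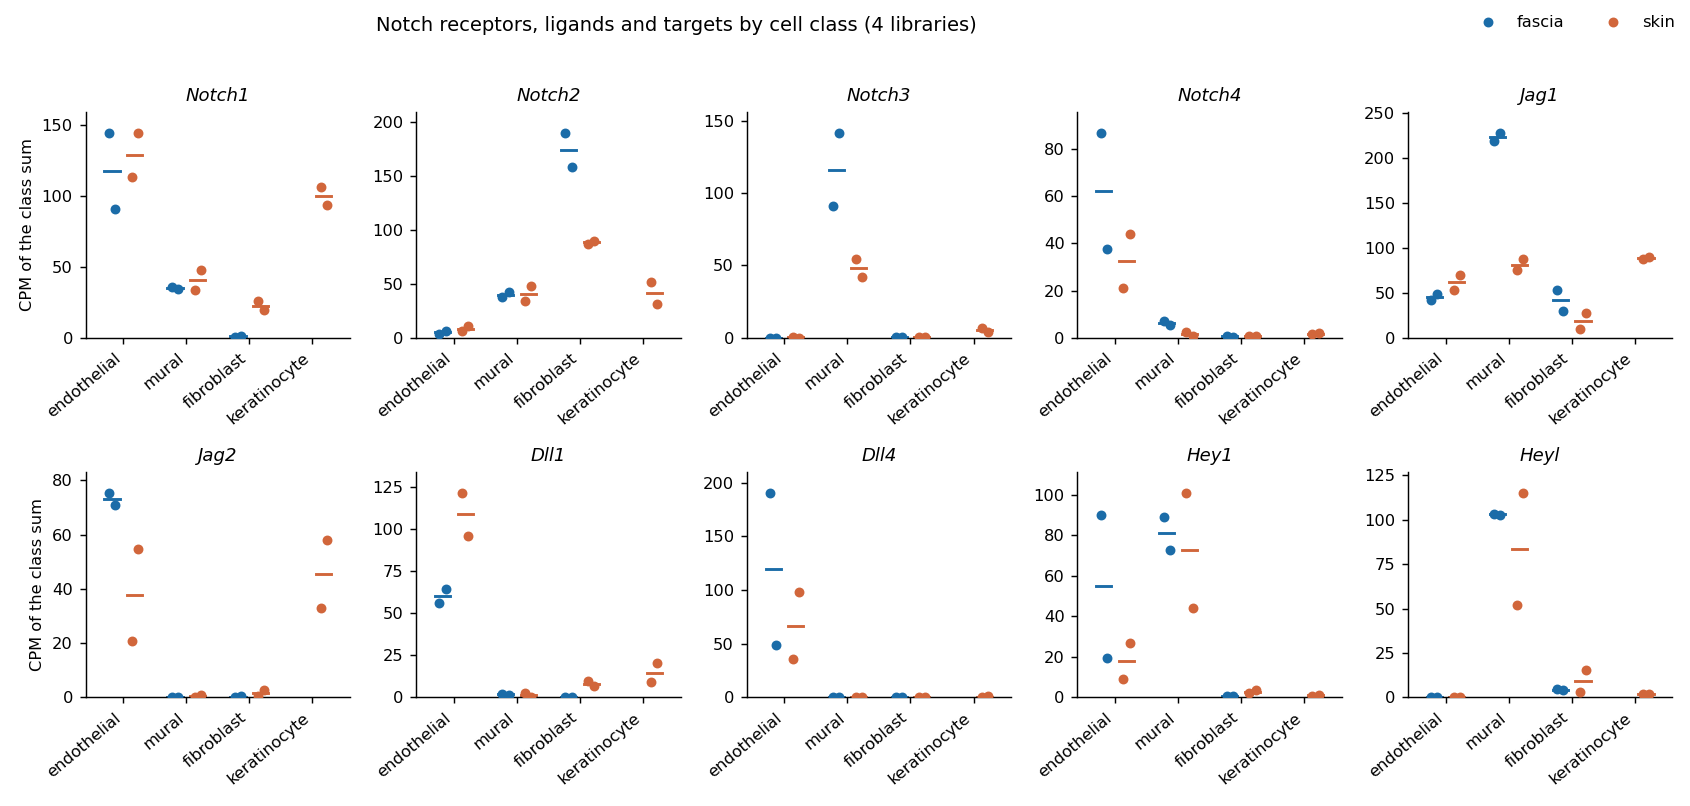
Levels of the 10 members in CPM of the class sum (y axes, each gene on its own scale) in endothelial, mural, fibroblast and keratinocyte cells (x axes), with 1 point per library and a bar at the mean of 2 libraries. Fascia points stand left of skin points, keratinocytes are from skin alone, and Notch3 and Heyl reach over 40 CPM in mural cells and stay under 16 CPM in the other classes.

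Among the receptors, Notch1 was highest in endothelial cells and keratinocytes, Notch2 in fibroblasts, Notch3 in mural cells and Notch4 in endothelial cells. Notch1, the receptor studied most in both endothelium and epidermis, had 144 and 90.8 CPM in fascia endothelial cells and 113 and 145 CPM in skin endothelial cells. In mural cells it had 35.8 and 34.5 CPM in fascia and 33.7 and 47.6 CPM in skin. In skin keratinocytes it had 107 and 93.9 CPM. The endothelial values of the tissues overlapped. Both keratinocyte values lay below both skin endothelial values and between the fascia endothelial ones. Averaged over tissues, Notch1 was higher in endothelial cells than in mural cells (log2 change 1.72 ± 0.21, adjusted p = 0.00011) and than in fibroblasts (4.52 ± 0.23, adjusted p = 3.0e-07). The fibroblast level was 0.973 and 1.47 CPM in fascia and 26.0 and 19.4 CPM in skin, so this average joins unlike tissues. The ratio of summed levels, endothelial over fibroblast, was 101 in fascia (95% counting interval 78.3 to 133) and 5.27 in skin (4.45 to 6.25). The summed endothelial markers in fibroblasts stood at 1.295% and 1.235% of their endothelial level in fascia. In skin they stood at 0.212% and 0.462%. The fibroblast levels were not corrected for this residual, and its part in the ratios was not tested. Keratinocytes and endothelial cells of the skin differed in Notch1 by a log2 change of -0.48 ± 0.27, which did not pass (adjusted p = 0.19).

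Notch2, a receptor that shares most ligands with Notch1, had the reverse order. It had 4.05 and 6.44 CPM in fascia endothelial cells and 6.35 and 10.8 CPM in skin endothelial cells, against 189.7 and 158 CPM in fascia fibroblasts and 87.2 and 89.6 CPM in skin fibroblasts. Every endothelial sum was below every fibroblast sum. The endothelial level was lower than that of fibroblasts by a log2 change of -4.30 ± 0.26 (adjusted p = 7.7e-07) and lower than that of mural cells by -2.60 ± 0.28 (adjusted p = 4.2e-05). Skin keratinocytes held 51.8 and 31.5 CPM, and mural cells 37.6 and 42.6 CPM in fascia and 33.7 and 48.4 CPM in skin. The keratinocyte and mural values overlapped and their difference did not pass (-0.15 ± 0.34, adjusted p = 0.77, keratinocyte over mural).

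Notch3, the receptor known for its place in vascular smooth muscle and pericytes, was nearly absent from endothelial cells. Mural cells had 91.0 and 141 CPM in fascia and 54.4 and 42.0 CPM in skin. Endothelial cells held 1 and 2 Notch3 UMIs in fascia and 2 and 0 in skin, out of 1113262 to 11646947 UMIs per library. Fibroblasts held 13 and 4 Notch3 UMIs in fascia and 3 and 1 in skin. The mural level was above that of fibroblasts by a log2 change of 7.45 ± 0.24 (adjusted p = 1.6e-07). Relative to endothelial cells, the summed mural level of Notch3 was 730.5-fold higher in fascia (95% counting interval 249.7 to 3544) and 78.0-fold higher in skin (20.8 to 657). Intervals of ratios and shares cover counting error only. Skin keratinocytes had 6.75 and 4.02 CPM, below the mural level by a log2 change of -3.27 ± 0.25 (adjusted p = 1.2e-05).

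In cells thinned to 2000 UMIs, a Notch3 UMI was seen in 14.8% (exact 95% interval 12.5 to 17.4) of 843 and 21.7% (19.8 to 23.7) of 1746 fascia mural cells, against 12.3% (5.47 to 22.8) of 65 and 8.40% (5.21 to 12.7) of 238 skin mural cells. Without thinning, the Notch3 shares were 50.6% and 60.8% in fascia and 23.9% and 15.9% in skin, at median depths of 10127 and 9683 UMIs in fascia and 6007 and 4754 in skin. Immune cells, taken as the background, had thinned Notch3 shares of 0.136% and 0.0461% in fascia, at median depths of 10471.5 and 9514 UMIs. The skin immune cells with a Notch3 UMI were 0 of 115, which allows a share of up to 2.61%, and 0 of 103, which allows up to 2.91%, at median depths of 6604 and 4211 UMIs. The mural shares thus lay above the immune background in all 4 libraries.

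Notch4, a receptor found mainly in endothelium, had 86.7 and 37.4 CPM in fascia endothelial cells and 21.2 and 44.0 CPM in skin endothelial cells. The tissues overlapped. Mural cells had 7.03 and 5.25 CPM in fascia, while the skin mural cells held 1 Notch4 UMI in each library. Endothelial cells exceeded fibroblasts in Notch4 by a log2 change of 5.70 ± 0.25 (adjusted p = 1.2e-07), and skin keratinocytes were below endothelial cells by -4.29 ± 0.28 (adjusted p = 4.0e-06).

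Among the ligands, Dll4 and Dll1 were highest in endothelial cells and Jag2 in endothelial cells and keratinocytes, and Jag1 was present in all 4 classes. Dll4, the Delta-like ligand of arteries and sprouting vessels, had 190.9 and 49.0 CPM in fascia endothelial cells and 36.0 and 97.9 CPM in skin endothelial cells, with the highest and the second lowest value both from fascia. Mural cells held 3 and 0 Dll4 UMIs in fascia and 0 and 0 in skin. Relative to mural cells, the endothelial level was 885-fold higher in fascia (95% counting interval 302 to 4295) and at least 30.2-fold higher in skin, with the 0 of the mural group set to 3 counts. Fibroblasts held 10 and 0 UMIs in fascia and 1 and 0 in skin. Skin keratinocytes had 0.246 and 1.37 CPM, below skin endothelial cells by a log2 change of -6.65 ± 0.40 (adjusted p = 5.2e-06).

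A Dll4 UMI was seen in 23.0% (19.2 to 27.1) and 8.15% (6.42 to 10.2) of fascia endothelial cells thinned to 2000 UMIs, against 8.46% (5.00 to 13.2) and 13.2% (7.75 to 20.6) of skin endothelial cells. Unthinned, the Dll4 shares were 42.7% and 24.6% in fascia and 23.0% and 28.5% in skin, at median depths of 10208 and 11101.5 UMIs in fascia and 8678.5 and 5508 in skin. In immune cells the thinned Dll4 share was 0 of 733 (which allows up to 0.409%) and 0.0461% in fascia, and 0 of 115 (up to 2.61%) and 0 of 103 (up to 2.91%) in skin. Fascia replicate 1 stood above the other 3 libraries in both the share and the level.

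Dll1, the other Delta-like ligand measured, had 56.3 and 64.3 CPM in fascia endothelial cells and 122 and 96.1 CPM in skin endothelial cells. Outside the endothelium its highest level was in skin keratinocytes, with 9.29 and 20.3 CPM. Keratinocytes were below endothelial cells in Dll1 by a log2 change of -3.07 ± 0.40 (adjusted p = 0.00024), while keratinocytes and skin fibroblasts differed by 0.63 ± 0.44 (adjusted p = 0.27), a value that turned to -0.28 without skin replicate 2.

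Jag2 had 75.6 and 71.0 CPM in fascia endothelial cells and 20.7 and 54.8 CPM in skin endothelial cells. In skin keratinocytes, Jag2 had 32.9 and 58.2 CPM. Keratinocytes and skin endothelial cells overlapped (log2 change 0.25 ± 0.30, adjusted p = 0.56). Mural cells held 1 and 4 Jag2 UMIs in fascia and 0 and 1 in skin, and fibroblasts 3 and 5 in fascia and 3 and 10 in skin. Endothelial cells exceeded fibroblasts in Jag2 by a log2 change of 6.60 ± 0.32 (adjusted p = 2.3e-07), an average over tissues whose Jag2 effects differed as given below, and keratinocytes exceeded skin fibroblasts by 4.74 ± 0.41 (adjusted p = 1.5e-05). The keratinocyte level multiplied by the residual of keratinocyte markers came to 53.1% and 22.1% of the Jag2 level of skin fibroblasts, whose part in that level was not tested.

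Jag1, a Jagged ligand whose loss from mouse endothelium impairs the smooth muscle coat, was highest in fascia mural cells. It had 219.7 and 229 CPM in fascia mural cells and 75.2 and 87.9 CPM in skin mural cells. In endothelial cells Jag1 had 41.8 and 49.4 CPM in fascia and 53.8 and 70.1 CPM in skin. In fibroblasts it had 53.6 and 30.5 CPM in fascia and 9.77 and 27.3 CPM in skin, and in skin keratinocytes 87.7 and 89.7 CPM. Averaged over tissues, mural cells exceeded fibroblasts in Jag1 by a log2 change of 2.19 ± 0.25 (adjusted p = 7.2e-05), and endothelial cells were below mural cells by -1.25 ± 0.24 (adjusted p = 0.0023). The endothelial excess of Jag1 over fibroblasts was 0.94 ± 0.24 (adjusted p = 0.0088). It was 0.64 without skin replicate 1 (adjusted p = 0.11) and 0.65 without fascia replicate 2 (adjusted p = 0.10).

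Of the targets, Hey1 was shared by endothelial and mural cells and Heyl was found in mural cells. Hey1, a repressor induced by Notch in vessels, had 90.2 and 19.6 CPM in fascia endothelial cells and 8.89 and 26.9 CPM in skin endothelial cells. In mural cells it had 89.2 and 72.5 CPM in fascia and 101 and 44.4 CPM in skin. Fibroblasts and keratinocytes were under 4 CPM in all libraries. Hey1 was higher than in fibroblasts in endothelial cells (log2 change 4.31 ± 0.48, adjusted p = 4.9e-05) and in mural cells (5.69 ± 0.46, adjusted p = 8.3e-06). The endothelial level was below the mural one by -1.38 ± 0.38 (adjusted p = 0.016), and that call was lost without skin replicate 1 (-0.80, adjusted p = 0.27) and without fascia replicate 2 (-0.92, adjusted p = 0.11).

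Heyl, the third gene of the Hey family, had 103 and 103 CPM in fascia mural cells and 51.8 and 115 CPM in skin mural cells. In fibroblasts it had 4.50 and 4.40 CPM in fascia and 3.13 and 15.6 CPM in skin. Endothelial cells held 1 and 2 Heyl UMIs in fascia and 0 and 0 in skin. Mural cells exceeded fibroblasts in Heyl by a log2 change of 3.79 ± 0.25 (adjusted p = 5.4e-06). Relative to endothelial cells, the mural level of Heyl was 603-fold higher in fascia (95% counting interval 206 to 2926) and at least 116-fold higher in skin, with the 0 of the endothelial group set to 3 counts. Every mural sum of Heyl was above every sum of the other 3 classes.

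In all, 9 of the 10 members passed between endothelial cells and fibroblasts, 7 of them higher in endothelial cells, where 46.8% of the 15000 genes tested passed. Between mural cells and fibroblasts 6 members passed, 5 of them higher in mural cells, where 40.8% of genes passed. All 10 passed between endothelial and mural cells, 5 in each direction, where 39.8% of genes passed. In skin, 6 members passed between keratinocytes and each of the other classes, where 46.6% of genes passed against fibroblasts, 37.2% against endothelial cells and 35.4% against mural cells. These class contrasts share libraries and one model, so they are not independent of each other. Of these calls, the Notch1 excess of keratinocytes over mural cells (1.16 ± 0.31, adjusted p = 0.017) was lost without skin replicate 1 (0.93, adjusted p = 0.087), without skin replicate 2 (1.78, adjusted p = 0.054) and with the top 5% of cells by UMIs left out (1.01, adjusted p = 0.056). Hey1 was lower in keratinocytes than in endothelial cells by -4.15 ± 0.65 (adjusted p = 0.00074), a call lost without skin replicate 2 (-3.57, adjusted p = 0.054).

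The next comparison set fascia against skin within each class that both tissues held. TMM factors, which set most genes to no change, and plain library totals gave different centres: totals moved the median log2 change of all genes by 0.44 in endothelial cells, 0.44 in mural cells and 0.25 in fibroblasts. Genes higher in fascia were 39.4% of all calls in endothelial cells, 37.1% in mural cells and 38.2% in fibroblasts with TMM, and 75.1%, 76.2% and 53.1% with totals, so the members' changes are relative to the TMM centre. In endothelial cells 2 of the 10 members passed and both were lower in fascia, out of 8 with enough UMIs to be tested, and 20.7% of all 11308 genes tested passed. Dll1 was lower in fascia endothelial cells, with 56.3 and 64.3 CPM in fascia and 122 and 96.1 CPM in skin (log2 change -1.31 ± 0.25, adjusted p = 0.013). Its tissues did not overlap, and leaving out each library in turn gave -1.59 to -0.93 with adjusted p of 0.0043 to 0.048. Jag1 was lower in fascia endothelial cells by a log2 change of -0.84 ± 0.20 (adjusted p = 0.025), again without overlap. That call did not hold without skin replicate 1 (adjusted p = 0.064), fascia replicate 1 (0.24) or fascia replicate 2 (0.059), nor with library totals in place of TMM factors (-0.42, adjusted p = 0.20).

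The other 6 members tested in endothelial cells did not pass. Their log2 changes, fascia over skin, were -0.55 ± 0.25 for Notch1, -1.02 ± 0.44 for Notch2 and 0.57 ± 0.43 for Notch4, with adjusted p of 0.14, 0.13 and 0.35. Jag2 had 0.65 ± 0.32, Dll4 0.49 ± 0.61 and Hey1 1.32 ± 0.75, with adjusted p of 0.18, 0.58 and 0.23. For Dll4 and Hey1, fascia replicate 1 lay above both skin libraries and fascia replicate 2 between them. The Dll4 change was -0.74 without fascia replicate 1 and passed without fascia replicate 2 (1.16, adjusted p = 0.016), so its direction rests on that choice. Without the same libraries Hey1 had -0.13 and 2.03 (adjusted p = 1.2e-05 for the second) and Notch4 -0.11 and 1.04 (adjusted p = 0.039 for the second). Jag2 ran from 0.16 to 1.24 with each library left out and passed without skin replicate 2 (1.24, adjusted p = 0.012). Arterial-gated cells, which had more Dll4 and Hey1 than venous-gated cells in every library, were 19.8% and 10.9% of fascia endothelial cells and 16.2% and 32.1% of skin endothelial cells. Whether these shares account for the spread was not tested. The 30 immune markers summed to 284 and 508 CPM in fascia endothelial cells and to 29.6 and 53.9 CPM in skin endothelial cells, and their part in the changes was not tested.

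In mural cells 1 of 8 tested members passed, where 15.2% of 11875 genes passed. Jag1 was higher in fascia mural cells by a log2 change of 0.99 ± 0.23 (adjusted p = 0.023), with 219.7 and 229 CPM in fascia and 75.2 and 87.9 CPM in skin. The tissues did not overlap, and the skin sums rest on 29 and 109 UMIs. Without fascia replicate 1 the change was 1.01 (adjusted p = 0.22), and without fascia replicate 2 it was 0.98 (adjusted p = 0.26). Notch3 did not overlap between tissues either, but its change of 0.89 ± 0.30 did not pass (adjusted p = 0.085). With library totals in place of TMM factors the Notch3 change passed (1.34 ± 0.30, adjusted p = 0.018). Notch1 had -0.74 ± 0.23 (adjusted p = 0.069), which passed without skin replicate 1 (-0.86, adjusted p = 0.022), and Notch2 had -0.56 ± 0.24 (adjusted p = 0.15). Hey1 had -0.12 ± 0.35 and Heyl -0.26 ± 0.30, and both values turned positive with library totals in place of TMM factors (0.32 and 0.18). Heyl passed without skin replicate 1 (-0.59, adjusted p = 0.030) and had 0.61 without skin replicate 2. The 14 fibroblast markers summed to 1724 and 1852 CPM in fascia mural cells, with 0 of them at 0 UMIs, and to 505 and 442 CPM in skin mural cells, with 6 and 4 at 0 UMIs. The 30 immune markers summed to 182 and 358 CPM in fascia mural cells and to 41.5 and 8.87 CPM in skin mural cells. The part of either in the mural changes was not tested.

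The shares of mural cells that passed the sub-gates differed between the tissues. The sub-gates count detected markers, so the shares can depend on depth, which was lower in skin mural cells, and this was not tested. The remaining mural cells passed neither sub-gate. In fascia the pericyte markers Colec11 and Cspg4 were lower in pericyte-gated than in smooth muscle-gated cells. Rgs5, Steap4, Kcnj8, Abcc9 and Vtn were higher there. Of the smooth muscle markers, Synpo2 had 505 and 588 CPM in fascia pericyte-gated and 464 and 540 CPM in fascia smooth muscle-gated cells. Des had 1701 and 1670 against 1726 and 1619 CPM in fascia, and 2218 and 1408 against 916 and 1706 CPM in skin. Myh11, Cnn1, Acta2, Actg2, Lmod1 and Smtn were higher in smooth muscle-gated cells in every library. Pericyte-gated cells were 51.2% and 43.4% of fascia mural cells and 31.3% and 8.76% of skin mural cells. Smooth muscle-gated cells were 7.40% and 7.77% of fascia mural cells and 29.9% and 61.4% of skin mural cells. In them the gate marker Actg2 had 190 and 161 CPM in fascia and 451 and 570 CPM in skin. Another gate marker, Acta2, had 3193 and 2990 CPM in fascia and 1717 and 2021 CPM in skin. Tests added after the data were seen gave a Jag1 change of 1.26 ± 0.26 in smooth muscle-gated cells alone (adjusted p = 0.016) and of 1.47 ± 0.33 in pericyte-gated cells alone (adjusted p = 0.064). The pericyte-gated skin cells held 9 and 5 Jag1 UMIs. Notch3 had 0.18 ± 0.41 in pericyte-gated cells alone (adjusted p = 0.86), with 88.5 to 133 CPM in fascia and 84.1 to 97.6 CPM in skin, which overlapped. In smooth muscle-gated cells alone Notch3 had 1.0 ± 0.43 (adjusted p = 0.19). Hey1, which did not pass in the whole class, was higher in fascia in smooth muscle-gated cells alone (1.57 ± 0.35, adjusted p = 0.022) and had -1.23 ± 0.32 in pericyte-gated cells alone (adjusted p = 0.11).

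In fibroblasts 3 of 6 tested members passed and all 3 were lower in fascia, where 21.2% of 12813 genes passed. Notch1 had 0.973 and 1.47 CPM in fascia fibroblasts, from 43 and 17 UMIs, and 26.0 and 19.4 CPM in skin fibroblasts, from 141 and 66 UMIs. Its log2 change was -4.58 ± 0.39 (adjusted p = 0.0048), and -4.88 to -4.17 with each library left out in turn (adjusted p of 0.0099 to 0.026). Dll1 had 0.272 and 0.259 CPM in fascia fibroblasts, from 12 and 3 UMIs, and 9.59 and 6.76 CPM in skin fibroblasts, from 52 and 23 UMIs. Its change was -5.19 ± 0.48 (adjusted p = 0.0055), and -5.52 to -4.75 with each library left out (adjusted p of 0.012 to 0.037). The tissues did not overlap for either gene.

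Few fibroblasts of either tissue held a UMI of these genes. Thinned to 2000 UMIs, fibroblasts with a Notch1 UMI were 0.326% and 0.281% in fascia and 5.58% and 2.65% in skin, and without thinning 1.35% and 1.96% in fascia and 15.0% and 6.37% in skin. Fibroblast median depths were 16516 and 15980.5 UMIs in fascia and 10704.5 and 5961 in skin. The keratinocyte level multiplied by the residual of keratinocyte markers came to 3.66% and 5.40% of the Notch1 level of skin fibroblasts and to 0.865% and 3.34% of their Dll1 level. The 13 endothelial markers summed to 161 and 112 CPM in fascia fibroblasts and to 13.6 and 33.2 CPM in skin fibroblasts. These sums were 1.295% and 1.235% of the endothelial level of the markers in fascia, and 0.212% and 0.462% in skin. The Notch1 and Dll1 levels of fibroblasts were not corrected for this residual, so the sizes of their changes are not exact. The 30 immune markers summed to 314 and 264 CPM in fascia fibroblasts and to 32.6 and 29.1 CPM in skin fibroblasts. The part of depth or of any of these residuals in the fibroblast changes was not tested. Hey1 had 0.815 and 0.518 CPM in fascia fibroblasts and 2.03 and 3.82 CPM in skin fibroblasts, from 11 and 13 skin UMIs. Its change of -2.26 ± 0.52 (adjusted p = 0.037) did not pass when any 1 library was left out (-2.63 to -1.93, adjusted p of 0.096 to 0.22), nor with library totals in place of TMM factors (adjusted p = 0.056).

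The other 3 members tested in fibroblasts did not pass. Notch2 had 189.7 and 158 CPM in fascia and 87.2 and 89.6 CPM in skin, without overlap, and its change of 0.72 ± 0.19 lay at the threshold (adjusted p = 0.052). It passed under 6 of the alternatives, among them DESeq2 (0.68, adjusted p = 0.036). Jag1 had 1.00 ± 0.46 (adjusted p = 0.18) and Heyl -1.21 ± 0.64 (adjusted p = 0.23). The Heyl value passed without skin replicate 1 (-1.92, adjusted p = 0.036) and turned to 0.12 without skin replicate 2, the library with 53 of the 70 skin UMIs.

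**Figure D2:**
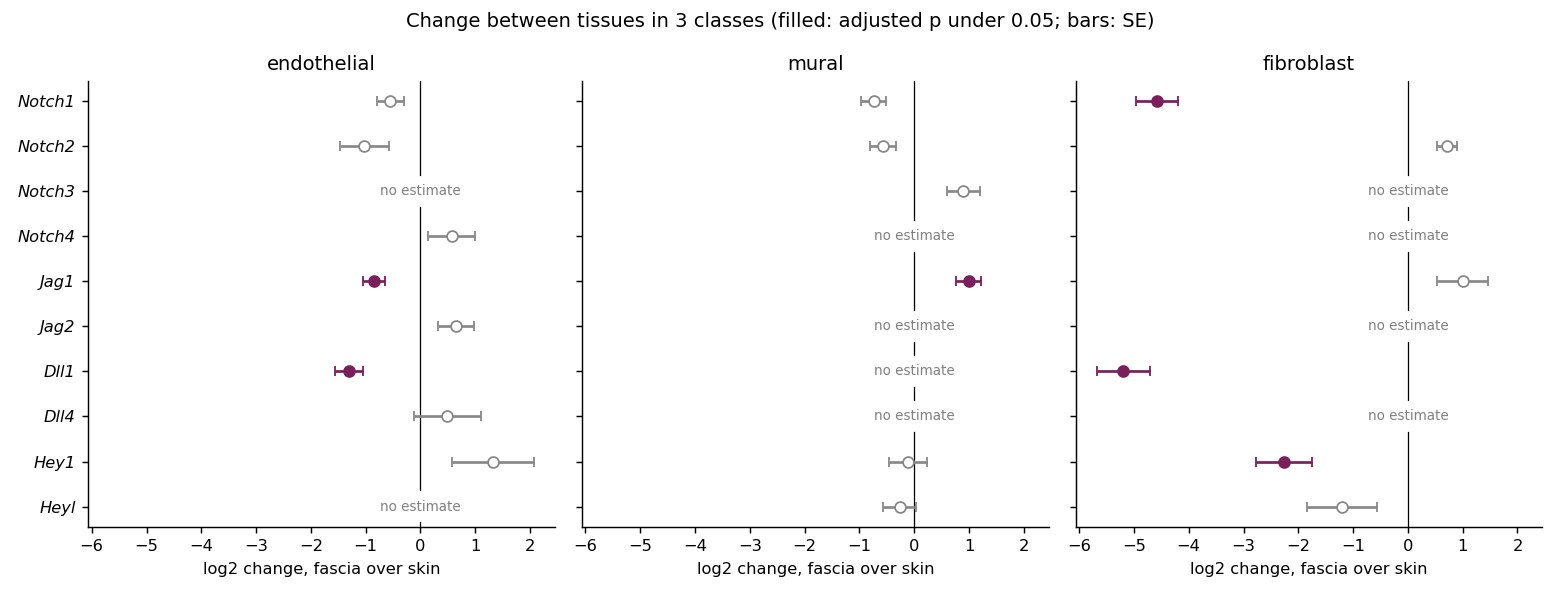
Log2 change of each member, fascia over skin (x axes), in endothelial cells, mural cells and fibroblasts, with bars of 1 SE. Filled points passed at an adjusted p under 0.05, open points did not, and "no estimate" marks members that were not tested or had at most 3 UMIs in a tissue. Notch1 and Dll1 in fibroblasts lie beyond -4, and every other value lies between -2.3 and 1.4.

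Whether the tissue effect itself differed between classes was tested as a difference of log2 changes in one model. Endothelial cells minus fibroblasts gave 3 members, where 6.41% of 15000 genes passed: Notch1 (4.13 ± 0.44, adjusted p = 0.0012), Dll1 (3.97 ± 0.75, adjusted p = 0.014) and Jag2 (4.2 ± 0.81, adjusted p = 0.015). The Notch1 difference passed without each library in turn (adjusted p of 0.0052 to 0.028). The Dll1 difference did not pass without fascia replicate 1 (4.10, adjusted p = 0.12) or fascia replicate 2 (3.72, adjusted p = 0.060). The Jag2 difference rests on 8 fascia and 13 skin UMIs in fibroblasts, and without each library it ran from 2.71 to 5.24 with adjusted p up to 0.21. Mural cells minus fibroblasts gave 2 members, where 7.27% of genes passed. Notch1 differed by 3.97 ± 0.47 (adjusted p = 0.0015). Dll1 also passed (adjusted p = 0.027), but the skin mural cells held 1 Dll1 UMI, so no size is given.

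Endothelial minus mural cells gave 0 members by edgeR, where 2.93% of genes passed, with 1 member at an unadjusted p under 0.05 and 1 called by DESeq2. That member by edgeR was Jag1, the gene that was lower in fascia endothelial cells and higher in fascia mural cells. The difference of its tissue effects was -1.90 ± 0.48 and did not pass after adjustment (adjusted p = 0.072).

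Within the endothelium, cells gated on arterial markers were set against cells gated on venous markers of the same library. None of the members was a marker. Of the 7 members tested, 5 passed and all were higher in arterial-gated cells, where 12.3% of 7963 genes passed. Over all genes, 52.4% of these calls were higher in arterial cells with TMM and 71.5% with totals. Dll4 had 325 and 133 CPM in fascia arterial cells and 105 and 256 CPM in skin arterial cells, against 50.4 and 23.2 CPM in fascia venous cells and 10.5 and 11.9 CPM in skin venous cells. Its log2 change was 2.80 ± 0.24 (adjusted p = 8.7e-06), and the arterial value was the higher one in all 4 libraries. Jag2 had 133 and 167 CPM in fascia arterial cells and 39.0 and 136 CPM in skin arterial cells, against 46.7 and 56.6 CPM and 11.4 and 21.8 CPM in the venous cells of fascia and skin (1.58 ± 0.20, adjusted p = 0.00021). Notch1 was higher by 0.90 ± 0.16 (adjusted p = 0.0021), with 169 to 234 CPM in arterial and 75.1 to 106 CPM in venous sums.

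Hey1 and Notch4 had almost no UMIs in venous-gated cells of the skin. Hey1 had 207 and 66.7 CPM in fascia arterial cells and 24.0 and 70.2 CPM in skin arterial cells, against 8.58 and 6.52 CPM in fascia venous cells and 3 UMIs in all in skin venous cells. The arterial level of Hey1 was 20.0-fold higher in fascia (95% counting interval 14.6 to 27.8) and 23.8-fold higher in skin (7.27 to 123), and Hey1 passed (adjusted p = 2.5e-06). Notch4 was 6.29-fold higher in arterial cells in fascia (5.15 to 7.71) and 70.0-fold higher in skin, where 2 venous UMIs give an interval of 18.4 to 594, and it passed too (adjusted p = 0.00021). Jag1 (0.40 ± 0.19, adjusted p = 0.21) and Dll1 (-0.50 ± 0.32, adjusted p = 0.36) did not pass. All 5 calls held without each library in turn, and a fit without the library as a block made 2 calls.

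Dll1 followed another pattern in each tissue. Arterial cells had 78.3 and 80.8 CPM in fascia and 39.0 and 82.5 CPM in skin, while venous cells had 61.2 and 66.8 CPM in fascia and 163 and 131 CPM in skin. Fascia and skin overlapped in arterial but not in venous cells. The venous-gated cells of the tissues differed in markers of their own gate. Selp had 146 and 113 CPM in fascia and 2238 and 2968 CPM in skin, and Sele 108 and 164 CPM and 1173 and 933 CPM. Ephb4 had 133 and 107 CPM in fascia and 26.4 and 55.4 CPM in skin, and Aplnr 118 and 104 CPM and 10.5 and 35.6 CPM. The part of these marker differences in the venous tissue changes was not tested. In tests added after the data were seen, Dll1 was lower in fascia venous-gated cells by a log2 change of -1.70 ± 0.23 (adjusted p = 0.00066) and had 0.12 ± 0.36 in arterial-gated cells (adjusted p = 0.86). The difference of the arterial-venous change between tissues, fascia minus skin, was 1.77 ± 0.41 for Dll1 and did not pass (adjusted p = 0.099). By edgeR it passed for 0 of 7 members tested, where 0.653% of genes passed, with 3 at an unadjusted p under 0.05 and 0 by DESeq2. In venous-gated cells alone Jag2 was higher in fascia (1.32 ± 0.32, adjusted p = 0.014). Notch4 was 19.0-fold higher there (95% counting interval 5.19 to 159, from 157 fascia and 2 skin UMIs). Unlike the Jag2 change, this is a ratio of summed levels on library totals without TMM factors.

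**Figure D3:**
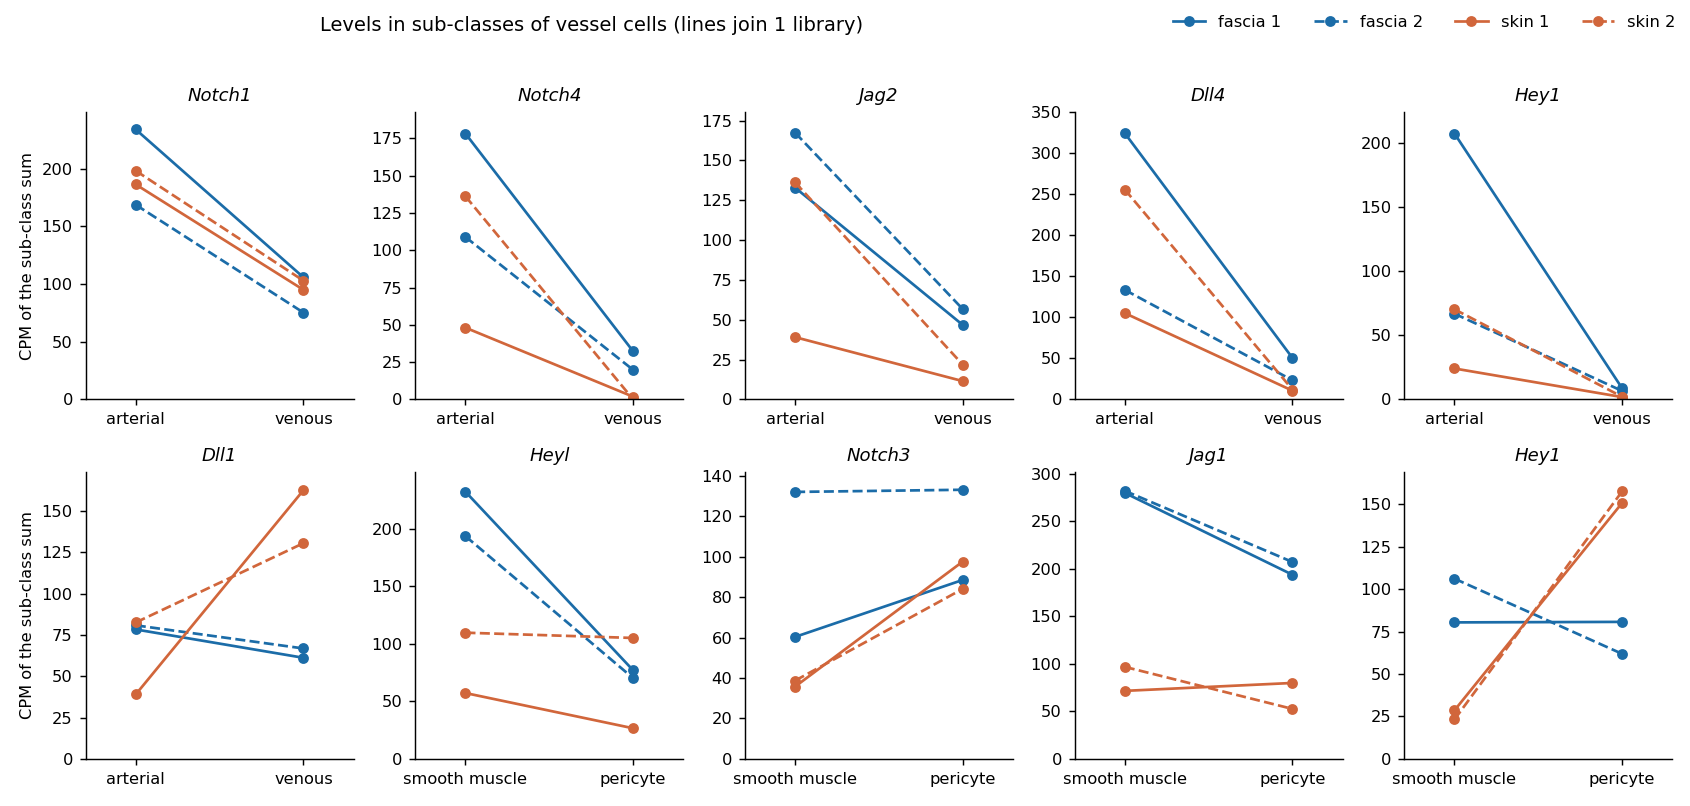
CPM of members (y axes) in arterial- and venous-gated endothelial cells (6 panels) and in smooth muscle- and pericyte-gated mural cells (last 4 panels), with lines joining the 2 sums of 1 library. Dll4, Jag2, Notch1, Notch4 and Hey1 are higher in arterial cells in each of the 4 libraries, and in mural cells the Hey1 values of both skin libraries are higher in pericytes than in smooth muscle.

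Within the mural class, 1 of 6 tested members passed between smooth muscle- and pericyte-gated cells, where 15.6% of 7264 genes passed. Heyl had 232 and 194 CPM in fascia smooth muscle cells and 57.2 and 110 CPM in skin smooth muscle cells, against 77.0 and 70.2 CPM in fascia pericytes and 26.6 and 105 CPM in skin pericytes. It was higher in smooth muscle in each library, by a log2 change of 1.35 ± 0.21 (adjusted p = 0.00077), which did not pass without fascia replicate 1 (1.04, adjusted p = 0.16) or fascia replicate 2 (1.17, adjusted p = 0.095), nor without the library as a block (1.14, adjusted p = 0.15). Notch3 (-0.39 ± 0.21, adjusted p = 0.28) and Jag1 (0.47 ± 0.18, adjusted p = 0.11) did not pass.

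Hey1 did not pass when averaged over tissues (-0.07 ± 0.39, adjusted p = 0.94), and the tissues differed. Smooth muscle cells had 80.4 and 106 CPM in fascia and 28.6 and 23.2 CPM in skin, and pericytes had 80.7 and 61.9 CPM in fascia and 151 and 158 CPM in skin. Neither sub-class overlapped between tissues. The difference of the smooth muscle-pericyte change, fascia minus skin, was 3.02 ± 0.53 (adjusted p = 0.0075), a test added after the data were seen, and Hey1 was the 1 member of 6 that passed, where 0.661% of genes passed. The skin sums rest on 4 and 18 UMIs in smooth muscle and 17 and 15 in pericytes. The difference was 3.32 without fascia replicate 1 (adjusted p = 0.57), 2.56 without fascia replicate 2 (adjusted p = 0.87) and 3.01 with the top 5% of cells by UMIs left out (adjusted p = 0.097).

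In skin keratinocytes, cells gated on suprabasal markers were set against cells gated on basal markers, with 252 and 680 suprabasal and 3097 and 4080 basal cells. By edgeR 0 of 9 tested members passed, where 0.698% of 14185 genes passed, with 3 at an unadjusted p under 0.05 and 2 called by DESeq2. Jag2 had 1.20 and 26.6 CPM in suprabasal cells and 49.2 and 72.1 CPM in basal cells (-2.72 ± 0.81, adjusted p = 0.26 by edgeR). Dll1 had 1.61 and 6.17 CPM in suprabasal cells and 11.9 and 24.4 CPM in basal cells (-2.13 ± 0.38, adjusted p = 0.13 by edgeR). DESeq2 called both, with adjusted p of 0.00066 for Jag2 and 0.037 for Dll1. The 2 suprabasal sums differed in basal markers, with 133 and 1798 CPM of Krt5 and 1878 and 8037 CPM of Krt15, while Itga6 had 81.5 and 70.2 CPM. The 14 fibroblast markers summed to 57.6 and 1515 CPM in them. The part of these differences in the suprabasal values was not tested. Notch2 had 64.8 and 45.5 CPM in suprabasal cells and 45.9 and 29.3 CPM in basal cells (0.84 ± 0.25, adjusted p = 0.25).

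A wider list of 50 genes of the pathway (other ligands, glycosyltransferases, proteases, nuclear partners, turnover factors and targets) gives the setting. Between tissues 3 of 40 tested genes were higher and 5 lower in fascia endothelial cells, with a median log2 change of 0.04 against 0.07 over all genes. Of all genes tested in endothelial cells 20.7% passed. Lfng, a glycosyltransferase that alters which ligands Notch receptors prefer, was higher in fascia endothelial cells, with 37.6 against 5.92 CPM on average (2.30 ± 0.28, adjusted p = 0.0028). The transcription factor gene Myc (-1.47 ± 0.22, adjusted p = 0.0053), the coactivator gene Maml2 (-1.36 ± 0.33, adjusted p = 0.027) and Dtx3l (-1.0 ± 0.26, adjusted p = 0.032) were lower there.

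In mural cells 3 of 42 tested genes of the list were higher and 6 lower in fascia, with a median of -0.07 against 0.09 over all genes. Of all genes tested in mural cells 15.2% passed. The target Hey2 averaged 6.82 CPM in fascia and 39.6 CPM in skin (-3.16 ± 0.33, adjusted p = 0.00074). Hey2 was also higher in smooth muscle- than in pericyte-gated cells (2.68 ± 0.40), whose shares of the mural class differed between tissues as given above. The part of these shares in the mural changes of the list was not tested. Nrarp, a target that feeds back on the pathway, averaged 201 CPM in fascia and 441 CPM in skin (-1.61 ± 0.43, adjusted p = 0.042). Myc was lower as well (-1.43 ± 0.26, adjusted p = 0.0091), and Dtx2 was higher, from 12 skin UMIs (1.38 ± 0.36, adjusted p = 0.038). In fibroblasts 1 of 42 was higher and 7 were lower in fascia, with a median of -0.15 against 0.05 over all genes. Of all genes tested in fibroblasts 21.2% passed. The target Hes1 averaged 129.8 CPM in fascia fibroblasts and 425 CPM in skin fibroblasts (-1.98 ± 0.31, adjusted p = 0.015). Myc (-1.44 ± 0.28, adjusted p = 0.026) and Bhlhe40 (-1.36 ± 0.23, adjusted p = 0.018) were lower too, and Pofut1, which adds the fucose that Notch receptors carry, was higher (1.31 ± 0.25, adjusted p = 0.023).

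**Figure D4:**
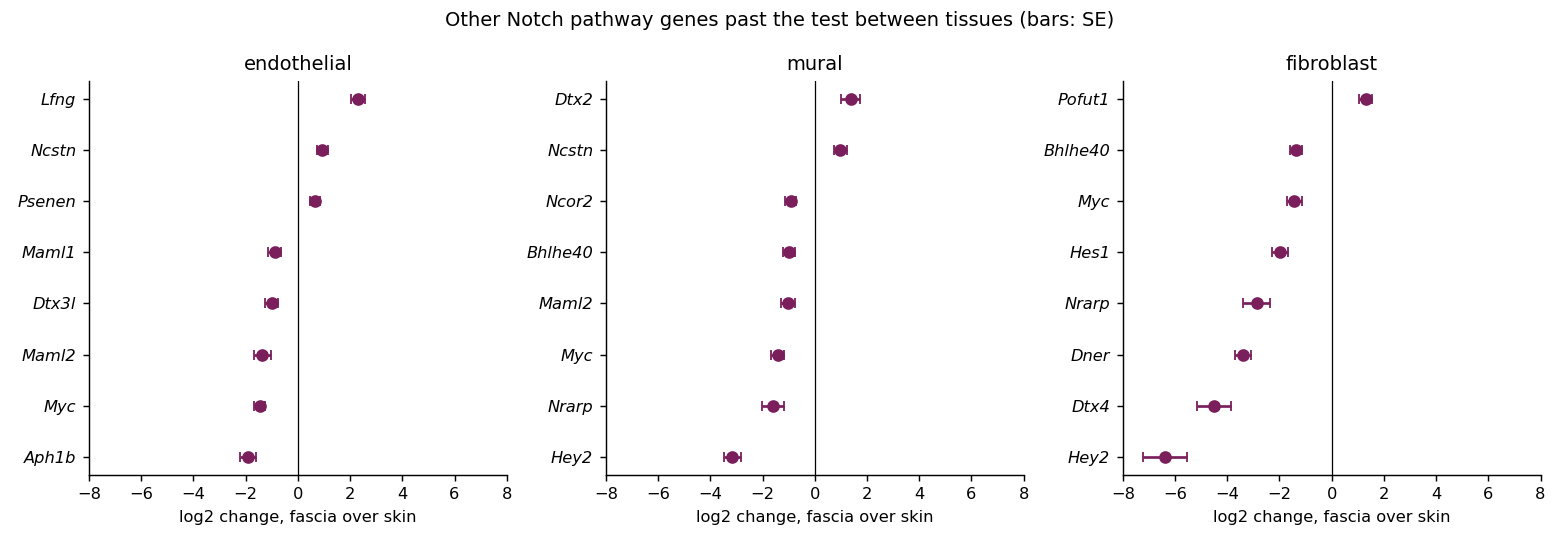
Log2 change, fascia over skin (x axes), of the genes of the wider pathway list that passed in endothelial cells, mural cells and fibroblasts and had more than 3 UMIs in each tissue, with bars of 1 SE. Myc is lower in fascia in all 3 classes, Lfng is higher in endothelial cells (2.30), and Hey2 is the lowest in mural cells (-3.16) and in fibroblasts, where fascia held 4 UMIs of it.

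Between sub-classes, 3 of 36 tested genes of the list were higher and 1 lower in arterial than in venous cells. Of all genes 12.3% passed there. Bhlhe40 (1.44 ± 0.20, adjusted p = 0.00040), Nrarp (1.22 ± 0.17, adjusted p = 0.00046) and Furin, a protease that matures Notch receptors (0.71 ± 0.21, adjusted p = 0.042), were higher, and Ccnd1 was lower (-1.50 ± 0.19, adjusted p = 0.00025). In smooth muscle against pericytes 2 of 33 were higher and 6 lower, where 15.6% of all genes passed. Hey2 (2.68 ± 0.40, adjusted p = 0.00058) and Dlk1 (1.96 ± 0.34, adjusted p = 0.0018) were higher in smooth muscle, and Adam10, a protease that cleaves Notch after binding (-0.98 ± 0.30, adjusted p = 0.048), and Myc (-0.91 ± 0.20, adjusted p = 0.0075) were lower. In suprabasal against basal keratinocytes 0 of 45 passed, where 0.698% of all genes passed.

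Between classes, 15 genes of the list were higher and 16 lower of 48 in endothelial cells against fibroblasts, where 46.8% of all genes passed. In mural cells against fibroblasts 10 were higher and 17 lower, where 40.8% of all genes passed. In endothelial against mural cells 12 were higher and 7 lower, where 39.8% of all genes passed. Nrarp was above its fibroblast level in mural cells (8.13 ± 0.34, adjusted p = 2.5e-07) and in endothelial cells (6.58 ± 0.33, adjusted p = 3.0e-07). Mfng, a glycosyltransferase of the same family as Lfng, was higher in endothelial cells than in fibroblasts (7.06 ± 0.48, adjusted p = 3.8e-06), and Psen2, a subunit of the protease that releases the intracellular part, was higher too (3.05 ± 0.16, adjusted p = 3.3e-07). Numbl, a relative of the Notch inhibitor Numb, was lower in endothelial cells than in fibroblasts (-6.48 ± 0.29, adjusted p = 1.6e-07). Hey2 (4.49 ± 0.59, adjusted p = 0.00020) and Ccnd1 (2.38 ± 0.39, adjusted p = 0.00090) were higher in mural cells than in fibroblasts. In skin keratinocytes 8 of 48 were higher and 12 lower than in fibroblasts, where 46.6% of all genes passed. Against endothelial cells 5 were higher and 8 lower in keratinocytes, where 37.2% passed. Against mural cells 10 were higher and 11 lower, where 35.4% passed. Numbl was lower in keratinocytes than in fibroblasts (-3.51 ± 0.27, adjusted p = 6.9e-06). Nrarp (3.37 ± 0.45, adjusted p = 0.00021), Maml3 (2.02 ± 0.35, adjusted p = 0.0011) and Fbxw7, which marks the intracellular part for breakdown (1.40 ± 0.20, adjusted p = 0.00038), were higher in keratinocytes than in fibroblasts.

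The genes with a symbol whose log2(CPM + 1) followed a member most closely were ranked over the 14 sums of class and library, among 9153 genes reaching 20 CPM in at least 1 sum. Sums of 1 library share their cells' preparation and depth, and the classes drive most of the variation, so the correlations are descriptions. Dll4 was followed by Gpihbp1 (Pearson's r = 0.994), Arhgef15 and Podxl, and Notch4 by Dennd3 (r = 0.963) and Emcn beside a gene with a provisional symbol. Notch3 was followed by Mtmr7 (r = 0.985), Lbh and Nt5c1a, and Heyl by Khdrbs3 (r = 0.985), Gdf11 and Smarcd3. Jag2 was followed by Ablim3 (r = 0.985), Ass1 and Tox3, Jag1 by Dock8 (r = 0.929), Cdc37 and Alpk1, and Dll1 by Ptpn14 (r = 0.974), Bace2 and Tmtc2. Hey1 was followed by Itga1 (r = 0.975), Sh2b3 and Mcam, Notch1 by Schip1 (r = 0.968), Plec and Lonrf1, and Notch2 by Meis1 (r = 0.969), Selenbp1 and Mmp14. Among the members themselves, the closest pairs were Notch4 with Dll4 (r = 0.940) and Notch3 with Heyl (r = 0.857), and the most opposed was Notch2 with Notch4 (r = -0.925).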

How the data were processed

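Single-cell RNA was measured in 2 subcutaneous fascia and 2 skin libraries. The authors deposited matrices of whole UMI counts, with genes against barcodes. Per the submitters' processing notes, Cell Ranger 6.0.1 and STAR were used and the builds mRatBN7.2 and GRCh38.p13 are named, and per the file headers the matrices carry Cell Ranger 7.0.0. Whether intronic reads were counted is not given in the sources used here.

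A cell was kept if it had 500 or more genes and no more than 20% of its UMIs from mitochondrial genes. A cell joined the lineage with the highest share of its markers detected, given at least 4 markers and every other lineage at no more than 0.5 of that share. Of 167 markers 154 matched, none of them a member. Blood endothelial cells with 2 or more of 6 lymphatic markers were removed. Arterial cells needed 2 markers and at most 1 venous one, venous cells 3 and at most 1 arterial one, smooth muscle 5 and at most 2 pericyte ones, pericytes 4 and at most 5 smooth muscle ones, suprabasal cells 3 and at most 3 basal ones, and basal cells 4 and at most 1 suprabasal one. Gate and sub-gate thresholds were set after marker counts, not members' values, were seen. No doublet caller was run: the gate drops cells whose second lineage exceeds that limit, so unequal doublets can pass it, and an alternative leaves out the top 5% of cells by UMIs.

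There were 0 columns of other samples. Counts were summed per class and library (at least 20 cells) and fitted with edgeR 4.0.16 in R 4.3.3 (TMM, filterByExpr, quasi-likelihood, Benjamini-Hochberg, threshold 0.05). Tissues were compared per class, and classes in one fit with the library as a block. Scripts were tested on simulated data. Alternatives were DESeq2 1.42.0, RLE factors, no low-count filter, the replicate number as a block, no library block, other gates, lymphatic cells included, each library left out and thinning to other depths than 2000 UMIs. Library totals without TMM, sub-gates alone and the sub-class by tissue tests were added after the data were seen. All 10 members are named. Of the 50 wider genes, up to 4 per comparison that passed were picked, with the largest changes and at least 20 CPM in the higher group. The text names a part of these picks, and none for some comparisons. The members and lists were chosen with earlier results of these data known.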

Additional observations from a re-analysis of the deposited data

Results flagged for a closer look

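For 6 results a test found that the effect of tissue differed between classes or sub-classes of cells, and 5 of them had more than 3 UMIs in every group compared. The fascia-over-skin log2 change of Notch1 was higher in endothelial cells than in fibroblasts by 4.13 ± 0.44 (edgeR, adjusted p = 0.0012) and higher in mural cells than in fibroblasts by 3.97 ± 0.47 (adjusted p = 0.0015). These comparisons share the fibroblast sums. For Dll1 the endothelial change exceeded that of fibroblasts by 3.97 ± 0.75 (adjusted p = 0.014), and for Jag2 by 4.2 ± 0.81 (adjusted p = 0.015). The sixth was Dll1 in mural cells against fibroblasts (adjusted p = 0.027), with no size given because skin mural cells held 1 Dll1 UMI. For Hey1 the smooth muscle over pericyte change in fascia exceeded that in skin by 3.02 ± 0.53 (adjusted p = 0.0075).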

How the results depend on the processing

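Over 85 results of single members, 1107 of 1210 alternative values kept their direction and their side of the threshold, 41 lost and 34 gained the call, and 28 changed sign, 1 of them for a result that had passed. That 1 was Dll1 between tissues in arterial-gated cells alone (0.12). The cause of these changes was not tested. Members called between tissues in endothelial cells were 2, against 1 with library totals, 4 with no low-count filter, 1 with a looser margin, 0 in arterial cells alone and 1 to 4 with a library left out. In mural cells they were 1, against 2 with library totals, 0 in pericytes alone, 2 in smooth muscle alone and 0 to 3 with a library left out. In fibroblasts they were 3, against 7 with no filter and 2 to 3 with a library left out. For the difference of tissue effects, endothelial minus fibroblast gave 3, against 6 with DESeq2, 6 with no filter and 1 to 3 with a library left out. Mural minus fibroblast gave 2, against 4 with no filter and 1 to 3 with a library left out, and endothelial minus mural gave 0, against 1 each with DESeq2, no filter and the top 5% of cells left out. Arterial against venous gave 5, against 2 without the library block. Smooth muscle against pericyte gave 1, against 0 without the block, 2 with the top 5% left out and 0 to 2 with a library left out. Suprabasal against basal gave 0, against 2 with DESeq2 and 2 with no filter, and could not be fitted with a library left out, since no residual degrees of freedom remain. The arterial-venous difference between tissues gave 0, against 2 with no filter, 2 with the looser margin and 0 to 2 with a library left out, and the smooth muscle-pericyte one gave 1, against 0 with the top 5% left out and 0 to 1 with a library left out. Class contrasts ranged from 8 to 9 calls for endothelial against fibroblast, 9 to 10 for endothelial against mural, 6 to 7 for keratinocyte against fibroblast and 4 to 6 for keratinocyte against mural.

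Changes of sign among values that had not passed in the main comparison were Notch2 in endothelial cells with the looser margin (0.06), Hey1 and Heyl in mural cells with library totals (0.32 and 0.18), Notch2 and Heyl in pericytes alone (0.61 and 0.12) and Hey1 and Heyl in smooth muscle alone (1.57, which passed, and 0.78). In smooth muscle against pericyte, Hey1 became 0.03 with the looser margin, 0.24 with 10% mitochondrial UMIs and 0.18 with the top 5% left out. In suprabasal against basal cells, Notch1 became 0.01 with RLE, 0.01 with DESeq2 and 0.12 with the top 5% left out, Hey1 0.08 without the block and 0.02 with the top 5% left out, and Heyl -0.39 with the top 5% left out. With a library left out, the tissue change in endothelial cells ran from -0.11 to 1.04 for Notch4, -0.74 to 1.16 for Dll4 and -0.13 to 2.03 for Hey1, in mural cells from -0.71 to 0.44 for Hey1 and -0.59 to 0.61 for Heyl, and in fibroblasts from -1.92 to 0.12 for Heyl. Keratinocyte against fibroblast ran from -0.28 to 1.54 for Dll1, keratinocyte against mural from -0.02 to 0.34 for Jag1 and -0.67 to 0.74 for Notch2, and smooth muscle against pericyte from -1.13 to 0.27 for Hey1.

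With the replicate number as a block, members called were 2 in endothelial cells, 1 in mural cells and 2 in fibroblasts, with Hey1 in fibroblasts lost (-2.25, adjusted p = 0.061). Same-numbered libraries deviated with r = -0.113, -0.069 and -0.0027 in these classes, so the numbers are not shown to pair them. Of all genes, 2338 were called between tissues in endothelial cells, against 3634 with no filter, 1539 with the block, 696 in arterial cells alone and 1186 to 3027 with a library left out. In mural cells 1800 were called, against 2945 with library totals, 235 in pericytes, 699 in smooth muscle and 785 to 2735 with a library left out. In fibroblasts 2717 were called, against 4803 with no filter and 543 to 2615 with a library left out. The 99 genes called between suprabasal and basal cells became 18 with library totals, 656 with DESeq2, 1598 with no filter and 0 without the block. For the differences of tissue effect, endothelial minus fibroblast gave 961 (1576 with DESeq2, 1462 with no filter, 186 to 1111 with a library left out), mural minus fibroblast 1090 (1639 with DESeq2, 300 to 934 with a library left out) and endothelial minus mural 440 (952 with DESeq2, 849 with no filter, 28 to 296 with a library left out). Arterial against venous gave 978 (1574 with no filter, 213 without the block, 542 to 941 with a library left out) and smooth muscle against pericyte 1130 (1817, 365, and 257 to 1453). Their differences between tissues gave 52 (209, 1, and 44 to 212, and 100 with the looser margin) and 48 (120, 5, and 0 to 309, with 76 at the looser margin and 111 at 10% mitochondrial UMIs). Suprabasal against basal also gave 184 with the top 5% left out. Thinned to 1000 and 4000 UMIs, the Notch3 share was 7.9% and 27.7% in mural cells of fascia replicate 1, 12% and 37.7% in replicate 2 and 4.0% and 15.0% in skin replicate 2, and the Dll4 share 12.4% and 34.4% in endothelial cells of fascia replicate 1 and 4.14% and 14.2% in replicate 2. The smallest class sum was that of mural cells in skin replicate 1, with 67 cells and 385804 UMIs.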

Other observations

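Lymphatic endothelial cells, gated in skin alone with 26 and 33 cells, held 15 and 34 Dll4 UMIs, or 110.0 and 171.5 CPM. Notch1 had 88.0 and 90.8 CPM in them, Notch2 58.7 and 40.4 CPM and Jag1 29.3 and 60.5 CPM. Notch3, Notch4, Jag2 and Heyl had 0 UMIs in both libraries. Immune cells had 103 and 107 CPM of Notch2 in fascia and 36.4 and 43.9 CPM in skin, and 47.7 and 36.4 CPM of Notch1 in fascia and 42.5 and 40.1 CPM in skin. The Notch2 values of the tissues did not overlap, and that difference was not tested.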
